A study of Saccharomyces cerevisiae with 12 samples.

Results

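Cells labelled ixr1 null were compared in 2 kinds of low oxygen: a shift of a culture grown in air to nitrogen, and growth overnight in anaerobic jars. The arrays were chosen by their titles, as the pair titled ixr1 hypoxic shift A and B and the pair titled ixr1 hypoxia A and B, which makes 4 of the 12 arrays of the series. Each array lists 5974 open reading frames (ORFs), and the 2229 with a positive value on all 4 arrays, 37.3%, were tested. Another 1564, 26.2%, were listed at 0 on both shift arrays and are described separately.

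The series measured messenger RNA of the budding yeast Saccharomyces cerevisiae, in air and in both kinds of low oxygen, in the wild type and in an ixr1 null strain. Every culture had the BY4741 background from EUROSCARF, a haploid laboratory strain of mating type a that lacks HIS3, LEU2, MET17 and URA3. All grew at 30 °C in a synthetic complete medium whose sugar was glucose (2%). The overnight hypoxia cultures grew in sealed jars below 1% oxygen, and their medium also held Tween 80 (0.5%) and ergosterol (20 mg/l), sources of the sterol and fatty acids that yeast cannot make without oxygen. The shift cultures grew in air to an OD600 of 0.8, then received bubbled nitrogen for 3 hours, and no lipid supplement is stated for them. The comparison therefore differs in the time without oxygen, the way oxygen was removed and, as labelled, the medium, and these cannot be told apart. First-strand cDNA made from total RNA with an oligo-dT primer and labelled with 32P was hybridised to the arrays. The design text mentions biological and technical replicates, but the labels do not say which of these A and B are. The p-values therefore measure the spread between arrays, which may be technical.

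Ixr1 binds DNA through high mobility group boxes and acts on hypoxic genes, and Rox1 is the repressor, also with such a box, that holds many hypoxic genes silent in air. Yeast needs molecular oxygen to make heme, sterols and unsaturated fatty acids, and falling heme and sterol levels are signals by which the cell senses low oxygen. Without oxygen it exchanges cell wall mannoproteins, putting the DAN and TIR proteins in place of those used in air, and lives by fermentation.

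The shift arrays were the less even pair. Array A held 3489 zeros (58.4%) and array B 1799 (30.1%), against 104 and 112 on the hypoxia arrays. The rank correlation across all ORFs was 0.590 between the shift arrays and 0.837 between the hypoxia arrays. Shift array B had rank correlations of 0.869 and 0.765 with the ixr1 null air arrays, and of 0.600 and 0.517 with the null hypoxia arrays. For shift array A these were 0.575 and 0.502 with air, and 0.413 and 0.385 with hypoxia. With the wild type shift array of the same letter the correlation was 0.719 for A and 0.869 for B. The SD between arrays had a median of 0.65 log2 units over tested ORFs in the shift group and 0.32 in the hypoxia group. Depth has no meaning for these intensities, and the number of arrays limits the precision.

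IXR1 itself was read on every array labelled null. Its deposited intensity, in arbitrary units scaled to a mean near 1 per array, was 0.608 and 1.13 in hypoxia, 3.60 and 3.01 after the shift and 9.75 and 8.64 in air. Both shift arrays were above both hypoxia arrays and below both air arrays. The rise from hypoxia to the shift was 2.11 ± 0.48 on the log2 scale (limma adjusted p = 0.0172). The error is the SE for 2 arrays per group, as for all errors below except where shift array B alone is named. The variance behind each SE was pooled, ORF by ORF, over the 6 groups and 12 arrays of the fit. The SE and p-values therefore do not reflect the larger spread of the shift arrays separately. The rise was no longer past the threshold of 0.05 under 5 of the 17 alternatives described in the closing section. Among these were leaving out hypoxia array A (1.64) and leaving out shift array A (1.96). The wild type readings were 0.441 and 0.399 in hypoxia, 4.0 and 3.34 in the shift and 8.11 and 7.03 in air. In hypoxia and in air the arrays labelled null thus read higher than the wild type, which goes against that label. The files do not say which part of the gene the probe covers or which part the null allele lacks. Every direction given below for the null is that of the arrays as labelled. Of the genes deleted in BY4741, MET17 read at most 0.0389 on the 4 arrays, and LEU2 was at 0 on both shift arrays. HIS3 and URA3 were positive on all 4. HIS3 read 0.82 and 0.571 in hypoxia and 0.0645 and 0.792 after the shift, and URA3 0.206 and 0.077, then 0.997 and 0.137. These readings do not check the background, since the probes are not described.

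In the contrast of shift minus hypoxia, 321 of the 2229 ORFs passed an adjusted p of 0.05, which is 14.4% of those tested. Of these 263 rose (11.8%) and 58 fell (2.6%). Whether called or not, 1587 (71.2%) of the 2229 were higher after the shift, the share against which counts of higher list members are to be read. Counts of list members that rose or fell are to be read against the 11.8% and 2.6%. The smallest change among the called ORFs was 2.95-fold. In all 321 the normalized values of the shift and hypoxia arrays did not overlap, which also held for 1314 (59%) of all ORFs tested. In bulk RNA, fewer cells that express a gene and less RNA per cell cannot be told apart. A reading is called dim if it lay in the lowest 10% of its array's positive values, and no fold is given for an ORF with one. The balance of rises and falls depended on the scaling. After quantile normalization of the 12 arrays the median log2 difference over all ORFs tested was 0.61, and on the deposited values it was -0.14, with 145 rises and 102 falls. The rises made up 81.9% of the calls in the first case and 58.7% in the second. Under the main scaling and 3 others 189 ORFs were called throughout, 135 that rose and 54 that fell. The tested ORFs were also those with a value on shift array A, so an ORF that faded there to 0 could not be counted as fallen. With zeros kept and values floored, 329 of 5974 ORFs rose and 494 fell. Log2 differences below are from the quantile normalized values, and list medians are also given relative to the median of all ORFs tested. Members of families with near-identical copies, such as ribosomal protein pairs, PAU genes, hexose transporters and SSA or TEF genes, may share signal on these arrays.

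**Figure D1:**
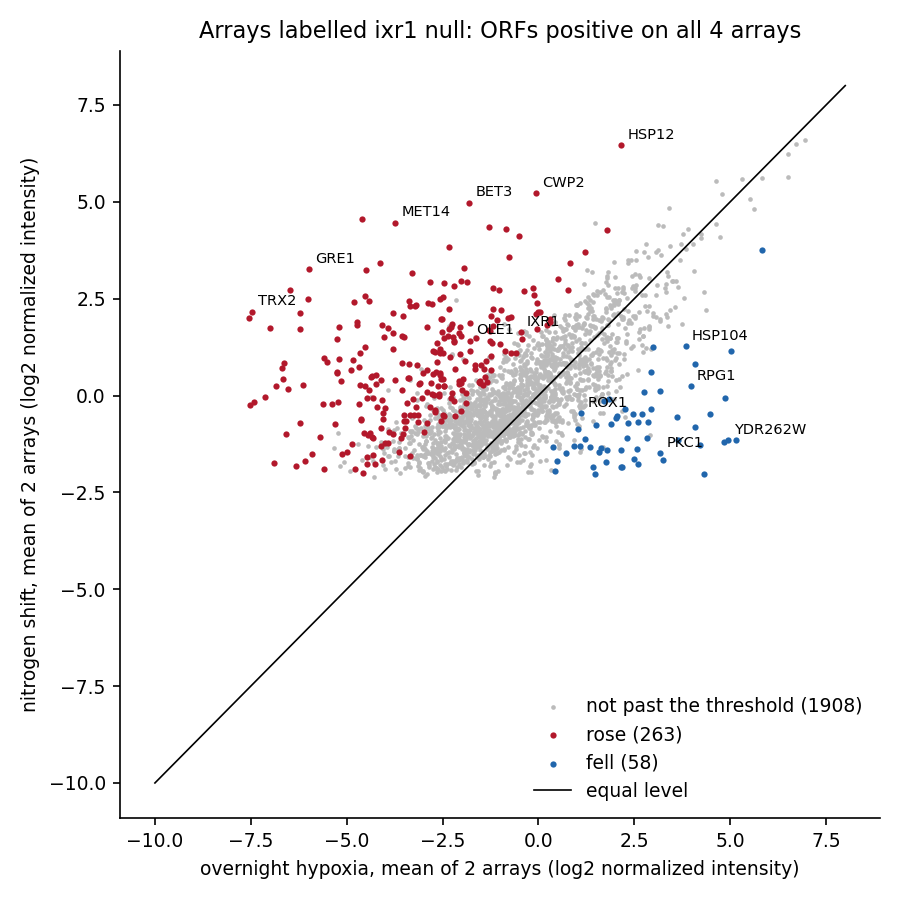
Mean log2 normalized intensity after the shift (vertical axis) against overnight hypoxia (horizontal axis) for the 2229 ORFs tested on the arrays labelled ixr1 null. Each point is an ORF, 263 that rose are red and 58 that fell are blue. The shift means end in a flat lower edge, because zeros took the lowest ranks on the shift arrays, and the hypoxia means reach lower.

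The sulfate and methionine pathway stood highest of the gene lists with at least 10 tested members. It carries sulfate into the cell, activates and reduces it to sulfide, and builds cysteine, methionine and S-adenosylmethionine from it. Of 36 members on the array 24 were tested, 10 rose and 1 fell, and 21 were higher after the shift, where 71.2% of all ORFs tested were. The median difference was 2.08, which is 1.47 above that of all ORFs tested, and 1.70 above it on the deposited values. Of these calls 9 rises and the fall were kept under all 4 scalings. BY4741 lacks MET17, the sulfhydrylase that joins sulfide to a carbon chain, and needs methionine in its medium.

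Of the activating and reducing enzymes, the 4 that were tested all rose. MET14, the kinase that turns adenylyl sulfate into its phosphorylated form, read 0.154 and 0.124 in hypoxia and 35.3 and 16.2 after the shift. The groups lay far apart, with shift array A higher than B. The difference was 8.19 ± 0.53 (adjusted p = 5.32e-05), or 292-fold on the normalized values. It was the largest rise among ORFs that were neither dim nor near the brightest value, and ran from 7.43 to 8.66 under the alternatives. MET5, a subunit of sulfite reductase, read 0.165 and 0.181 in hypoxia against 16.9 and 6.86, a rise of 6.47 ± 0.52 (adjusted p = 8.91e-05). MET10, the other subunit of that enzyme, read 0.878 and 0.639 against 20.4 and 8.89, a rise of 4.33 ± 0.53 (adjusted p = 0.000745). For both subunits the shift arrays lay above the hypoxia arrays, array A the higher. MET3, the ATP sulfurylase at the head of the pathway, read 0.354 and 0.196 against 4.15 and 8.89, with array B the higher one (5.07 ± 0.62, adjusted p = 0.000702). MET16, the reductase between these steps, was at 0 on hypoxia array A and was not tested. It read 0.035 on hypoxia array B and 10.2 and 3.04 after the shift.

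Some genes of steps after sulfide rose as well, and of the listed regulators MET28 and MET30 did. The regulator genes MET4, MET31, MET32 and CBF1 were not among the calls. Neither were MET6, CYS4, STR2 and STR3 of the later steps. CYS3, cystathionine gamma-lyase of cysteine synthesis, read 0.701 and 0.699 in hypoxia and 33.7 and 15.9 after the shift, a rise of 5.16 ± 0.46 (adjusted p = 0.000134). MHT1, which recycles homocysteine to methionine, rose by 5.02 ± 0.56 (adjusted p = 0.000415). MET28, a cofactor of the activator Met4, rose by 3.12 ± 0.45 (adjusted p = 0.00166), and MET30, of the ubiquitin ligase that restrains Met4, rose by 4.09 ± 0.84 (adjusted p = 0.0108). The call for MET30 was lost without shift array A (2.88, adjusted p = 0.0765) or hypoxia array B (3.70, adjusted p = 0.067). The sulfate permease SUL1 read 1.57 and 1.96 in hypoxia and 20.1 and 7.7 after the shift. Its call (2.58 ± 0.58, adjusted p = 0.0167) was lost without shift array A (adjusted p = 0.125) or hypoxia array A (adjusted p = 0.0891). SAM2, an S-adenosylmethionine synthetase, read 2.89 and 3.36 against 17 and 30.1, and its call (adjusted p = 0.0467) was lost without any one of the 4 arrays (adjusted p from 0.0986 to 0.166). The gene of the sister enzyme, SAM1, was at 0 on hypoxia array B and read 0.0228 on A, 8.88 and 16.6 after the shift. MET8, which makes the siroheme cofactor of sulfite reductase, was the member that fell. It read 1.82 and 1.51 in hypoxia and 0.0353 and 0.224 after the shift (adjusted p = 0.0108), and shift array A was dim. Without hypoxia array A its adjusted p was 0.0583.

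**Figure D2:**
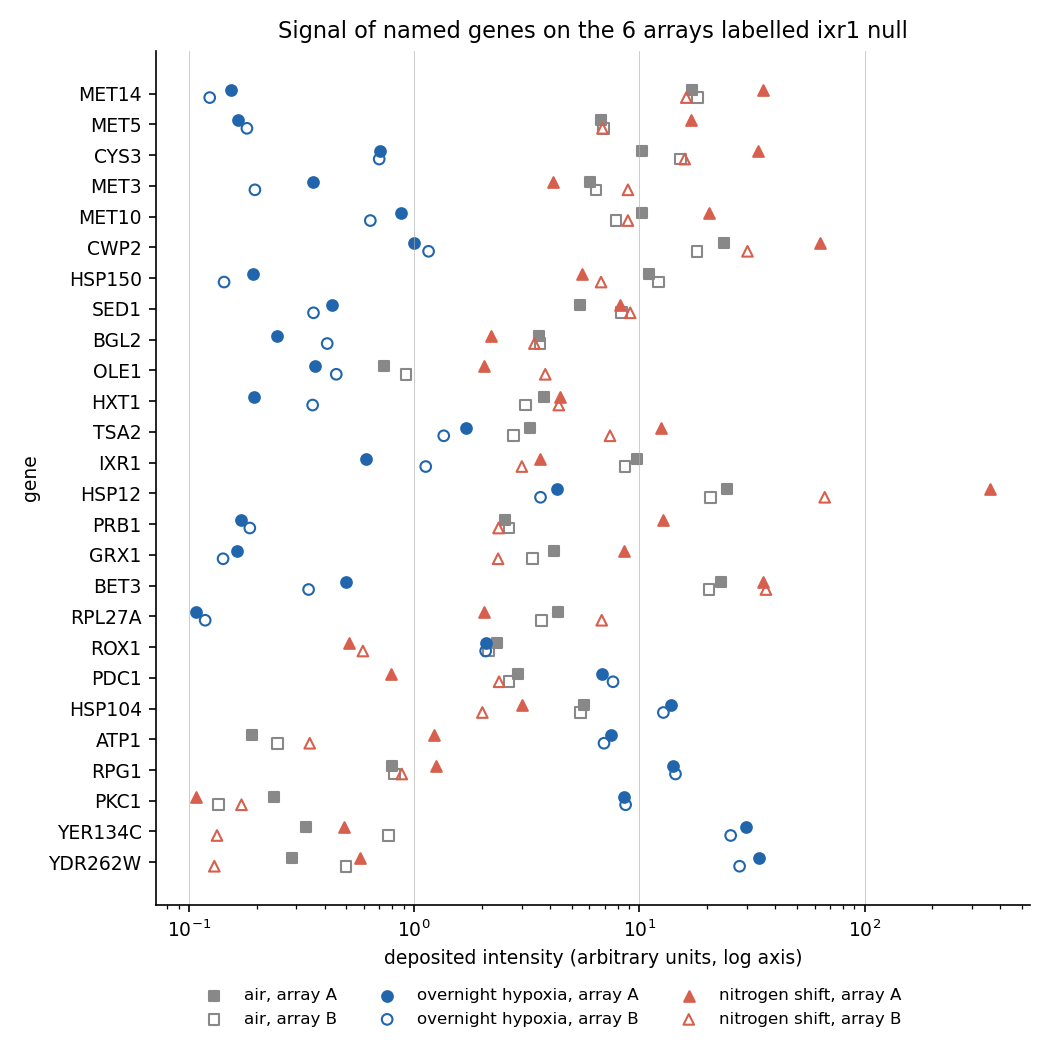
Deposited intensity (arbitrary units, log axis) of 26 named genes on each of the 6 arrays labelled ixr1 null: air (squares), overnight hypoxia (circles) and nitrogen shift (triangles), array A filled and B open. MET14 read 0.154 and 0.124 in hypoxia, 35.3 and 16.2 after the shift and 17.2 and 18.1 in air. For most genes drawn the shift and air symbols lie together and the hypoxia symbols apart.

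Genes of the cell wall used in air were mostly higher after the shift. Of 27 listed genes 19 were tested, 7 rose and none fell, with 17 higher beside the 71.2% of all ORFs tested. The median lay 0.90 above that of all ORFs tested, and 1.65 above it on the deposited values. CWP2, a major mannoprotein of the outer wall, read 0.994 and 1.16 in hypoxia and 63.5 and 30.2 after the shift. No array of one group came near the other, and the rise was 5.29 ± 0.49 (adjusted p = 0.000146). HSP150, a secreted protein linked to the glucan layer, read 0.193 and 0.143 against 5.55 and 6.76, a rise of 5.82 ± 0.61 (adjusted p = 0.000312). SED1, the chief wall protein of stationary cells, rose by 4.81 ± 0.55 (adjusted p = 0.000449). BGL2, a glucan-modifying enzyme, rose by 3.58 ± 0.53 (adjusted p = 0.00176), and UTH1 by 3.10 ± 0.53 (adjusted p = 0.00378). The calls for PIR1 and PIR3, 2 further glucan-linked proteins, were lost without hypoxia array A (adjusted p = 0.143 and 0.0841). Both were lost without shift array A as well (0.103 and 0.102), and PIR1 also without shift array B (0.0756). CWP1, a further mannoprotein, was lower, at 2.26 and 2.47 in hypoxia and 0.41 and 2.00 after the shift (-1.11 ± 0.59, adjusted p = 0.235). CCW12, an abundant mannoprotein, went the other way in its listing, at 4.03 and 3.65 in hypoxia and 0 on both shift arrays. In all 4 of the 27 genes were at 0 on both shift arrays.

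The seripauperins, a family of small wall-type mannoproteins induced in anaerobic growth, were mostly lower after the shift. Of 20 PAU genes on the array 13 were tested, 11 were lower, 1 fell and none rose. The median was -1.11, or 1.71 below that of all ORFs tested and 1.68 below it on the deposited values. PAU7, the gene that fell, read 3.28 and 3.07 in hypoxia and 0.0198 and 0.262 after the shift (adjusted p = 0.00188). Shift array A was dim there. Another 6 PAU genes were at 0 on shift array A only, among them PAU3, at 3.36 and 2.66 in hypoxia and 0.122 on shift array B. Beside shift array B alone PAU3 differed by -3.75 ± 0.85 (adjusted p = 0.0372). Not all 6 were lower there. PAU21 read 0.0226 and 0.299 in hypoxia and 0.545 on shift array B, and PAU17 read 0.183 and 0.421 against 0.339, neither past the threshold (adjusted p = 0.176 and 0.392).

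The DAN and TIR mannoprotein genes split by array. Of the 8 genes 5 were at 0 on shift array A and positive on shift array B. DAN1, a mannoprotein made only without oxygen, read 5.09 and 3.98 in hypoxia, 0 on shift array A and 7.38 on B, against 0.0707 and 0.298 in air. TIR1 read 0.168 and 0.137 in hypoxia, 0 on shift array A and 12.3 on B. For both genes shift array B was above both hypoxia readings, and the 0 on array A carries no level. Normalized, DAN1 was higher on shift array B by only 0.28 on the log2 scale, and TIR1 by 7.11. DAN4 differed there by 0.20 with an SE of 1.15, and TIR4 by 3.16 with an SE of 1.17. The median over the 1910 ORFs at 0 on shift array A only with a hypoxia level was 0.38. DAN1 and DAN4 lay below that median. TIR2 went the other way, at 1.82 and 2.88 in hypoxia and 0.392 on shift array B (-2.28). TIR3 had a value on all 4 arrays, 0.379 and 0.235 in hypoxia and 0.674 and 9.91 after the shift (3.89 ± 0.97, adjusted p = 0.027). That call was lost on the deposited values, without hypoxia array B (3.24, adjusted p = 0.158) and without shift array B (2.19, adjusted p = 0.0744). DAN2 and DAN3 carry the names PAU23 and PAU24 in RefSeq and belong to both lists. PAU23 differed by -1.11 and PAU24 by -0.71, neither past the threshold.

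Among 26 hypoxic or Rox1-repressed genes 11 were tested, 3 rose and 1 fell, with a median of 0.75 beside 0.61 for all ORFs. OLE1, the fatty acid desaturase that needs oxygen, read 0.362 and 0.451 in hypoxia, 2.04 and 3.82 after the shift and 0.736 and 0.920 in air. Its shift arrays were above all the others, and the rise of 3.20 ± 0.60 (adjusted p = 0.0067) was kept under every alternative. TSA2, an inducible peroxiredoxin, read 1.70 and 1.35 in hypoxia and 12.5 and 7.40 after the shift (2.48 ± 0.55, adjusted p = 0.0164). Without shift array A its difference was 2.14 (adjusted p = 0.117), and without a hypoxia array the adjusted p was 0.0502 or 0.0835. ERG11, the oxygen-using lanosterol demethylase of sterol synthesis, read 0.162 and 0.230 against 0.679 and 1.64. Its rise of 3.40 ± 0.79 (adjusted p = 0.0184) was lost on the deposited values and without any one array (adjusted p from 0.0565 to 0.0828). It was the one gene called of the 10 tested sterol synthesis genes.

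ROX1, the repressor itself, went down. It read 2.08 on each hypoxia array, 0.514 and 0.592 after the shift, and 2.33 and 2.14 in air, so that the shift arrays were the low ones of all 6. The fall was 1.56 on the log2 scale, with an SE of 0.41 (adjusted p = 0.033). That call was lost under 9 of 17 alternatives, among them leaving out any one array. HAP1, the heme-responsive activator, read 5.45 and 3.58 in hypoxia and 2.31 and 0.834 after the shift, without overlap but not past the threshold (-1.74 ± 0.57, adjusted p = 0.0732). HAP3, of the activator of respiratory genes, rose by 2.87 ± 0.67 (adjusted p = 0.0194), a call lost on the deposited values, without shift array A (adjusted p = 0.134) and without hypoxia array B (adjusted p = 0.127). Other hypoxic genes did not pass the threshold or were not tested. ANB1, the eIF5A translation factor gene used in hypoxia, read 2.77 and 2.94 in hypoxia and 2.91 and 3.91 after the shift, a difference of 0.01 ± 0.51 whose sign turned under other settings. HEM13, the oxygen-using coproporphyrinogen oxidase of heme synthesis, differed by 0.70 ± 0.48 (adjusted p = 0.357), and COX5B, the hypoxic subunit of cytochrome c oxidase, by 1.49 ± 0.66 (adjusted p = 0.164). AAC3, the hypoxic ADP/ATP carrier, read 1.08 and 1.20 in hypoxia, 0.499 on shift array A and 0 on B. CYC1, CYC7, ECM22 and SUT1 were at 0 on both shift arrays.

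Of 34 tested genes for reserve carbohydrates and general stress 6 rose and 1 fell, where 11.8% and 2.6% of all ORFs tested did. Their median of 0.73 was close to the 0.61 of all ORFs tested, and on the deposited values it lay 1.09 above theirs. HSP12, a small membrane-protecting stress protein, read 4.30 and 3.64 in hypoxia, 361 and 66.5 after the shift and 24.4 and 20.7 in air. On shift array A it was the brightest ORF of that array, and in air it lay within 10% of the brightest values of those arrays, 24.5 and 20.8, so that it has no exact level there. The rise was 4.30 ± 0.82 (adjusted p = 0.00719), and without shift array A it was 3.69 (adjusted p = 0.0698). PRB1, a vacuolar protease, read 0.171 and 0.186 against 12.7 and 2.37, a rise of 5.53 ± 0.76 (adjusted p = 0.00122). SIP18, linked to survival of drying, read 0.158 and 0.0548 in hypoxia and 13.5 and 3.45 after the shift (adjusted p = 0.00122). GRE1, a related gene, read 0.0833 and 0.0183 against 29.7 and 4.91 (adjusted p = 0.00295). For both the hypoxia group held a dim array, and shift array A was again the brighter. TPS2, of trehalose synthesis, rose by 3.94 ± 0.94 (adjusted p = 0.0212) but not without shift array A (2.80, adjusted p = 0.166) or without a hypoxia array (adjusted p = 0.0841 and 0.0918). HSP104, the disaggregase, was the member that fell. It read 13.8 and 12.8 in hypoxia and 3.00 and 2.01 after the shift, a fall of 2.56 with an SE of 0.45 (adjusted p = 0.00444). That call was lost under 1 alternative.

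Of 22 tested genes of redox defence 7 rose and none fell, and 19 were higher after the shift, beside the 71.2% of all ORFs tested. Their median of 1.20 was 0.60 above that of all ORFs tested and 1.02 above it on the deposited values. GRX1, a glutaredoxin, read 0.163 and 0.142 in hypoxia and 8.54 and 2.36 after the shift (5.58 ± 0.71, adjusted p = 0.000891). TRX2, a cytosolic thioredoxin, read 0.0278 and 0.0100 against 7.61 and 3.36 (adjusted p = 5.32e-05), and the dim hypoxia readings fix no fold. MXR1, a methionine sulfoxide reductase, rose by 3.96 ± 0.72 (adjusted p = 0.00534), TRR2, the mitochondrial thioredoxin reductase, by 3.41 ± 0.59 (adjusted p = 0.00406), and HYR1, a thiol peroxidase, by 2.91 ± 0.47 (adjusted p = 0.00272). The calls for TRR2 and HYR1 were each lost under 1 alternative (limma adjusted p = 0.0521 and 0.0622), which for TRR2 was another scaling. TSA2 completes the group with TRX1, whose rise of 1.60 ± 0.43 (adjusted p = 0.0357) was lost under 11 of 17 alternatives. Among these were the deposited values and leaving out any one array. Of 25 tested Hsp70, Hsp90 and folding genes 4 rose and none fell, where 11.8% and 2.6% of all ORFs tested did. SSB2, a ribosome-bound Hsp70, was among the risen, at 4.98 ± 0.64 (adjusted p = 0.000967), and the largest difference in the list was 5.04. The median of that list, 0.25, was 0.36 below that of all ORFs tested and 0.32 above it on the deposited values.

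**Figure D3:**
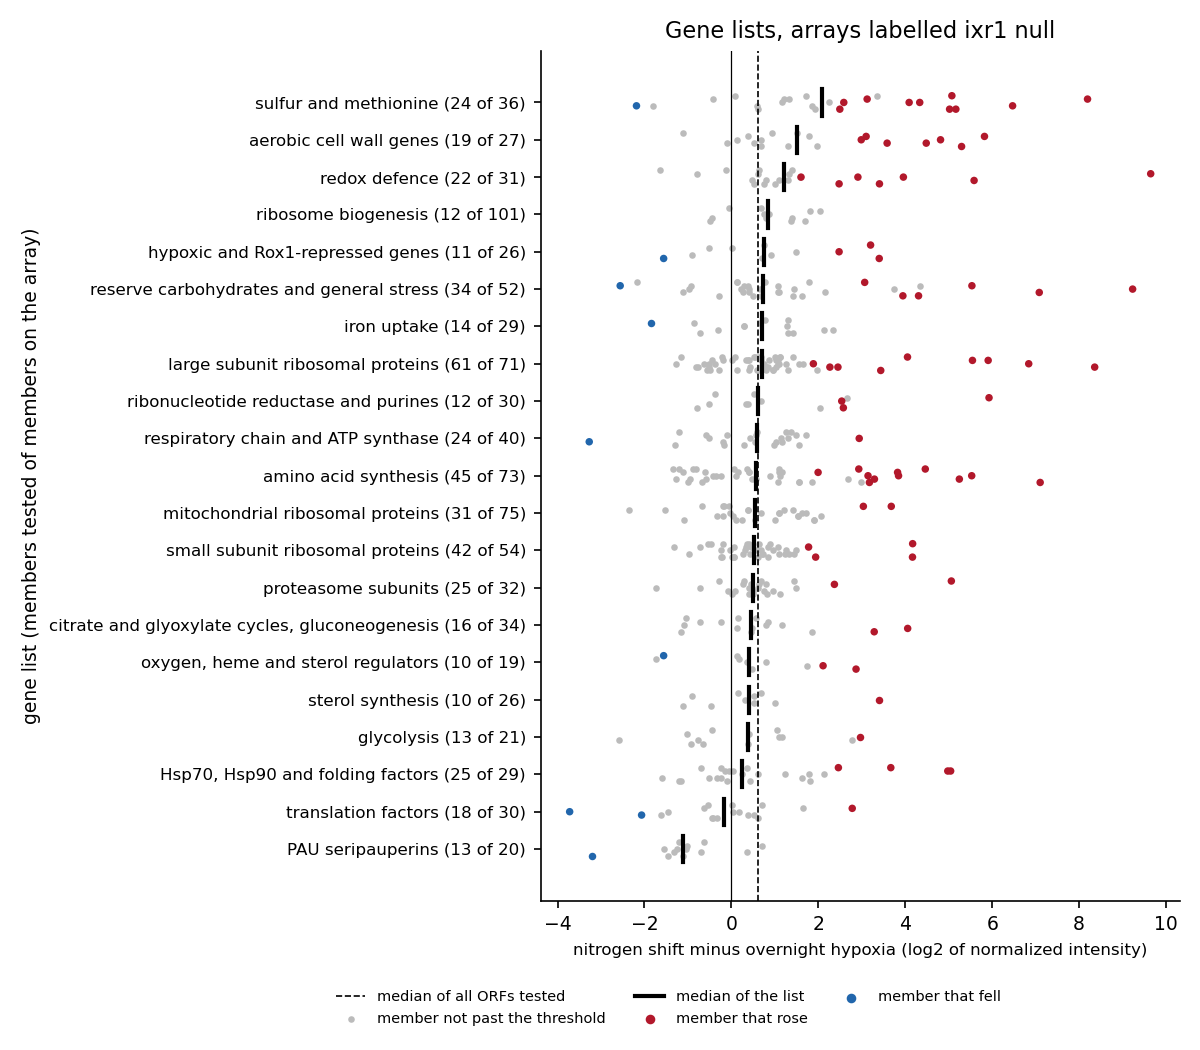
Log2 difference of shift minus hypoxia for the tested members of 21 gene lists with at least 10 tested members; each point is a gene, red where it rose and blue where it fell, and the thick bar is the list median. The sulfur and methionine list has its median at 2.08 and the PAU list at -1.11, where all ORFs tested have 0.61 (dashed).

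Genes of carbon metabolism moved in both directions. Of 13 tested glycolytic genes 1 rose, PFK2 of phosphofructokinase, and that call was lost on the deposited values and without hypoxia array A (adjusted p = 0.104) or shift array B (adjusted p = 0.0755). TDH3, FBA1 and GPM1, which are highly expressed in glucose, read 20.5 to 24.5 in air, at or near the brightest values of those arrays (24.5 and 20.8). All 3 were at 0 on shift array A. TDH3 read 0.158 and 0.367 in hypoxia and 0.101 on shift array B, FBA1 0.863 and 0.683 against 0.252, and GPM1 2.78 and 3.23 against 0.0152. Beside shift array B alone GPM1 passed (adjusted p = 0.00606) and TDH3 and FBA1 did not (adjusted p = 0.702 and 0.758). HXT1, the low-affinity glucose transporter, read 0.195 and 0.354 in hypoxia, 4.43 and 4.39 after the shift and 3.77 and 3.13 in air. The shift arrays were nearly equal, and the rise of 4.53 ± 0.44 (adjusted p = 0.000183) was kept under every alternative. PDC1, the main pyruvate decarboxylase, read 6.80 and 7.64 in hypoxia and 0.791 and 2.38 after the shift. Its fall of 2.33, with an SE of 0.53 (adjusted p = 0.0172), was lost without shift array A (-1.71, adjusted p = 0.126) and without a hypoxia array (adjusted p = 0.0582 and 0.0846). ADH2, the glucose-repressed alcohol dehydrogenase, read 0.144 and 0.455 against 0.512 and 7.19. Its call (adjusted p = 0.0303) was lost on the deposited values, without hypoxia array A (adjusted p = 0.162) and without shift array B (adjusted p = 0.101). CIT2, the peroxisomal citrate synthase, rose by 4.05 ± 0.63 (adjusted p = 0.00229), one of 2 risen genes among 16 tested of the citrate cycle and gluconeogenesis. Of 24 tested respiratory genes 1 rose and 1 fell, both of ATP synthase. ATP1 read 7.50 and 6.96 in hypoxia and 1.22 and 0.344 after the shift (-3.27 ± 0.64, adjusted p = 0.00794). In air it read 0.190 and 0.247, below both shift readings, of which only that of array B came near. ATP3 rose by 2.94 ± 0.57 (adjusted p = 0.0077), a call lost without shift array A (2.33, adjusted p = 0.0652).

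Over all ORFs tested 11.8% rose and 2.6% fell. The ribosomal protein genes gave 9 rises among 61 tested of the large subunit and 4 among 42 of the small one, with no fall in either. Their medians of 0.70 and 0.51 lay close to the 0.61 of all ORFs tested, whereas on the deposited values they lay 0.82 and 0.74 above it. RPL27A read 0.108 and 0.118 in hypoxia and 2.04 and 6.80 after the shift, a rise of 5.91 ± 0.54 (adjusted p = 0.000134). Its paralog RPL27B, which has a row of its own and may share its signal, rose by 1.88 ± 0.44 (adjusted p = 0.0186). That call was lost under 10 of 17 alternatives, among them the deposited values and leaving out any one array. RPS20 read 0.254 and 0.277 against 2.89 and 3.99 (4.17 ± 0.61, adjusted p = 0.00166). RPL25 and RPP0 read 0.0787 and 0.0144, and 0.169 and 0.0574, in hypoxia. They read 3.25 and 7.13, and 4.64 and 7.64, after the shift (adjusted p = 0.000603 and 0.000449), with dim hypoxia readings. Of 31 tested mitochondrial ribosomal proteins 2 rose, among them MRPL35 by 3.04 ± 0.41 (adjusted p = 0.00122). The 101 genes for ribosome assembly could hardly be tested, as 68 (67.3%) were at 0 on shift array A only and 18 on both, where the figures over all ORFs were 32.2% and 26.2%.

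Amino acid synthesis had 11 rises and no fall among 45 tested genes, with a median of 0.57 that matched all ORFs within 0.04 and lay 0.20 above them on the deposited values. SER33, of serine synthesis, read 0.407 and 0.348 in hypoxia and 8.12 and 14.3 after the shift (5.24 ± 0.65, adjusted p = 0.000748). LEU4, of leucine synthesis, rose by 3.82 ± 0.57 (adjusted p = 0.00188), ARO4, of aromatic amino acids, by 3.14 ± 0.47 (adjusted p = 0.00187), and ILV6, of branched-chain amino acids, by 2.93 ± 0.45 (adjusted p = 0.00218). In each the shift readings lay above both hypoxia readings. Of 12 tested genes for ribonucleotide reductase and purines 3 rose, led by RNR4, the small subunit of the reductase, at 0.109 and 0.161 against 5.19 and 4.73 (5.93 ± 0.56, adjusted p = 0.000165). Among 18 translation factors 2 fell. RPG1, a subunit of initiation factor eIF3, read 14.2 and 14.5 in hypoxia and 1.25 and 0.881 after the shift (-3.72 ± 0.57, adjusted p = 0.00211). TEF1, elongation factor eEF1A, read 40.2 and 47.5 against 8.71 and 25.9, and its call (adjusted p = 0.0454) was lost on the deposited values, without shift array A (adjusted p = 0.264) and without a hypoxia array (adjusted p = 0.0887 and 0.207). SUP45 was called risen (adjusted p = 0.00195), but on the deposited values its difference was -0.29, so no direction is given for it.

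Outside the lists, the ORFs that rose most and were bright enough for a fold included several with no shared textbook role. BET3, a core subunit of the TRAPP vesicle-tethering complex, read 0.498 and 0.340 in hypoxia and 35.5 and 36.5 after the shift. On the normalized values its rise was 110-fold (6.78 ± 0.51, adjusted p = 7.65e-05). PEX10, a peroxisomal ubiquitin ligase, read 0.335 and 0.269 against 19.7 and 13.2 (6.16 ± 0.49, adjusted p = 8.63e-05). EGD2, of the nascent polypeptide-associated complex, read 0.201 and 0.258 against 7.22 and 10.3 (5.76 ± 0.46, adjusted p = 8.63e-05). Its partner EGD1 read 0.0272 and 0.0712 in hypoxia, both dim, and 7.42 and 5.99 after the shift (adjusted p = 5.32e-05). Both subunits of that complex were therefore higher on both shift arrays. YHR138C, TFB6 and YLL053C rose between 5.62 and 5.67. Of the 321 calls 98 were dim on at least 1 of the 4 arrays, 84 that rose and 14 that fell.

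The largest falls named here are those among ORFs neither dim nor near the brightest value. YDR262W read 34.0 and 27.9 in hypoxia, 0.577 and 0.130 after the shift and 0.285 and 0.498 in air, a fall of 6.09 with an SE of 0.81 (adjusted p = 0.00111). YER134C, a phosphatase gene, read 29.8 and 25.4 against 0.486 and 0.133 (-6.04 ± 0.67, adjusted p = 0.000415). YDR360W, which had no match in RefSeq, read 37.8 and 32.1 against 0.677 and 0.108 (-6.30 ± 0.78, adjusted p = 0.00118). In these 3 ORFs hypoxia was bright on both arrays and shift array B was the dimmest of the 4. PKC1, the protein kinase of the cell wall integrity pathway, read 8.52 and 8.69 in hypoxia and 0.107 and 0.171 after the shift (-4.66 ± 0.90, adjusted p = 0.0077). SSD1, an RNA-binding protein with a role in wall growth, read 12.8 and 10.03 against 0.933 and 0.298, and its call (adjusted p = 0.0317) was lost without any one array (adjusted p from 0.0745 to 0.118). FUB1, SOA1, YCX1, POP8, YAR030C, ERV46 and SLX5 complete the 12 largest falls among such ORFs, between -5.47 and -3.94. The call for ERV46 was lost without either hypoxia array or shift array B (adjusted p from 0.0513 to 0.0565). AAD3, of the aryl-alcohol dehydrogenase family, fell by 2.58 with an SE of 0.43 (adjusted p = 0.00351).

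The ixr1 null air arrays did not enter the contrast, though they were normalized and fitted with the others. On them 22 and 25 ORFs lay within 10% of the brightest value, so that bright ORFs have no exact level in air. Of the 263 ORFs that rose, 230 (87.5%) had a mean after the shift that was nearer to the mean in air than their mean in hypoxia was. Among the 57 that fell and had values in air the count was 53 (93.0%). Over all 2207 tested ORFs with values in air it was 1244 (56.4%), and on the deposited values 235, 48 and 1128. The median ORF that rose stood at -3.36 in hypoxia and at 0.30 after the shift, relative to air on the log2 scale, and the median that fell at 3.95 and 0.57. MET14, HXT1, RPG1 and YDR262W are examples. For OLE1, TSA2 and ROX1 the shift readings lay outside the range of both other groups.

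The 1564 ORFs at 0 on both shift arrays carry no level there and were not tested. Their median signal in hypoxia was 0.188, where the other ORFs had 0.503, and 1430 of them were positive on both hypoxia arrays. Of the 1564, 232 (14.8%) were above the array median on both hypoxia arrays, as were 2169 (49.2%) of the others. Their signal was lower than that of the others elsewhere too, with a median of 0.110 in ixr1 null air and 0.0719 on the wild type shift arrays, against 0.517 and 0.426 for the others. A few were bright in hypoxia. ATG14, a subunit of the autophagy lipid kinase, read 19.2 and 22.6 in hypoxia, 0 on both shift arrays and 0.255 and 0.457 in air. RFA1, the large subunit of the single-strand DNA-binding complex, read 18.4 and 18.1 in hypoxia and 0.152 and 0.0242 in air. UBX7, MAD3, UTP5, NSA1 and YPR1 were further named genes among the 12 brightest in hypoxia with 0 on both shift arrays. Of 16 meiosis and sporulation genes 10 (62.5%) were at 0 on both shift arrays, where 26.2% of all ORFs were. Their median rank among all ORFs was low on the other null arrays too. It was 19.9% and 31.8% in hypoxia and 18.0% and 19.1% in air, counted from the dimmest ORF. Conversely 33 ORFs were at 0 on both hypoxia arrays, of which 30 were at 0 on both shift arrays and none was positive on both.

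**Figure D4:**
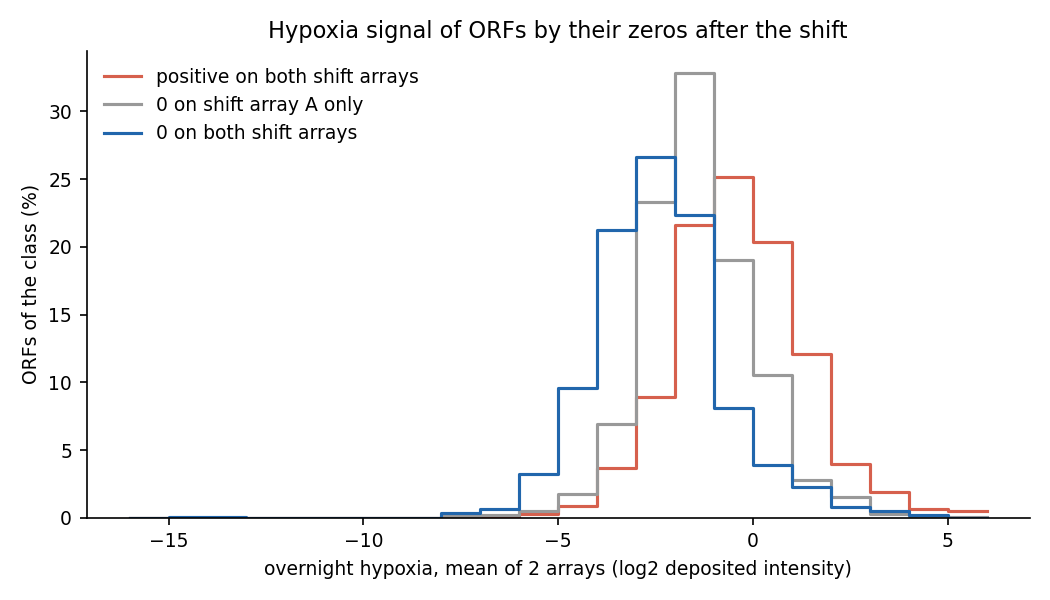
Distribution of the hypoxia signal (horizontal axis, mean log2 deposited intensity of 2 arrays) for ORFs positive on both shift arrays, at 0 on shift array A only and at 0 on both, as a percentage of each class (vertical axis). The medians were -0.43, -1.48 and -2.44 over 2229, 1910 and 1430 ORFs with a hypoxia level on both arrays.

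A further 1925 ORFs were at 0 on shift array A only. Over the 1910 of them with a hypoxia level, shift array B alone gave 40 rises and 54 falls, with a single shift array assumed to vary as the other groups do. Of 7 a-specific mating genes, 2 were among the rises. MFA2, which encodes the a-factor pheromone, read 0.0439 and 0.000543 in hypoxia, 11.98 on shift array B and 14.6 and 11.2 in air. AGA2, a subunit of a-agglutinin, read 0.0561 and 0.0847 in hypoxia, both dim, against 1.03 on shift array B. BAR1, the protease that degrades alpha-factor, was at 0 on hypoxia array B and read 1.65 on shift array B. STE2, the alpha-factor receptor, and ASG7 were not called on shift array B (adjusted p = 0.157 and 0.934), and STE6, the a-factor exporter, was at 0 on both shift arrays. MFA1, a further a-factor gene, was positive on all 4 arrays, at 1.01 and 1.16 in hypoxia and 0.128 and 2.08 after the shift, and did not pass (adjusted p = 0.992). Among the falls, QDR3, a polyamine exporter, read 18.2 and 16.1 in hypoxia and 0.146 on shift array B, and NOP1, the nucleolar methyltransferase fibrillarin, read 4.46 and 4.45 against 0.0152.

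The same contrast in the wild type, on 4 other arrays, gave 227 rises (4.64%) and 156 falls (3.19%) among 4893 tested ORFs, 7.83% called in all. In 2203 ORFs tested in both genotypes, 260 rose in the null and 161 in the wild type, and 138 rose in both. Of the falls there, 55 were in the null and 54 in the wild type, with 26 in both. Of the 260 that rose in the null, 253 were higher after the shift in the wild type too, and all 55 that fell were lower. The wild type median over all 2203 ORFs was 0.17, so most were higher there whatever their call in the null. The 253 are to be read against that. OLE1, HXT1, CWP2 and HSP150, for example, rose in both genotypes.

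The difference between the genotypes was itself tested. No ORF of 2203 passed by limma (0% called; 153 had an unadjusted p under 0.05, of which 127 were more positive in the null). The smallest adjusted p was 0.0919, for AIR2, an RNA-binding subunit of a nuclear exosome cofactor, and with a replicate block for the letters within each condition it was 0.0462. It read 0.0395 and 0.0322 in null hypoxia, both dim, and 6.31 and 8.74 after the shift, and rose in each genotype. The differences for MET5 (3.92, adjusted p = 0.253) and CYS3 (3.03, adjusted p = 0.344) were among those that did not pass. The sulfur and methionine list had a median of 2.08 in the null and 0.90 in the wild type over the same 24 genes, where 6 rose in the wild type. All ORFs tested in both genotypes had medians of 0.59 and 0.17. Rises and falls in the null were thus not shown to differ from those of the wild type in any single ORF, and a p above the threshold does not show that the genotypes respond alike.

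**Figure D5:**
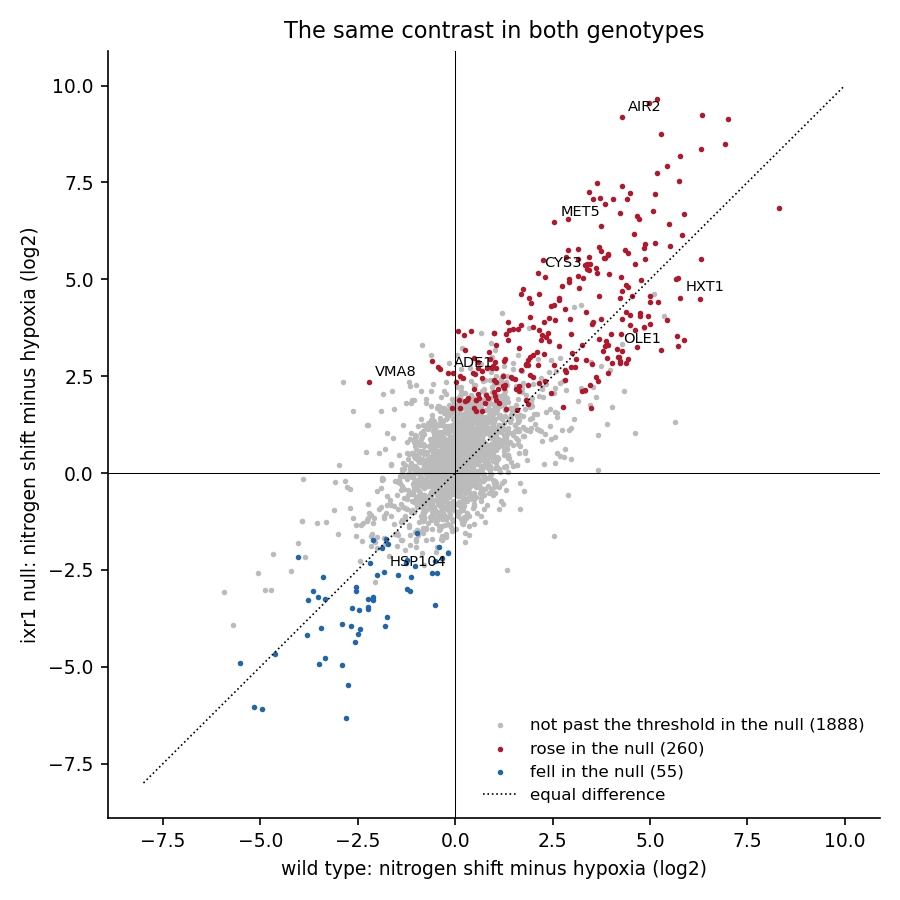
Log2 difference of shift minus hypoxia in the arrays labelled ixr1 null (vertical axis) against the wild type (horizontal axis) for the 2203 ORFs tested in both, coloured by the call in the null. Of the 260 red ORFs 253 lie to the right of 0, and all 55 blue ones lie to the left. Over all 2203 ORFs the wild type median was 0.17, so most points lie to the right.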

How the data were processed

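The authors deposited 1 intensity value per ORF and array, on a linear scale. The sources used here do not give the scanner, background subtraction, scaling or probes. The members, gene lists and tests were chosen with earlier results of these data known. The 12 arrays were quantile normalized with zeros included, zeros were set to missing, and the rest were log2 transformed without a pseudocount. Because zeros take the lowest ranks, dim values on the shift arrays were raised. A group-means model over all 12 arrays was fitted with limma 3.58.1 (R 4.3.3), moderated over the whole table, with Benjamini-Hochberg adjustment over the ORFs tested and a threshold of 0.05. Exact permutation of 2 against 2 arrays gives no p below 0.333 and was not used. The fit was also run on simulated arrays with known changes, and no result given here rests on that run. No array duplicated another. The deviations of same-lettered shift and hypoxia arrays had a correlation of -0.01, so the letters were not treated as pairs in that contrast. Between the genotypes same-lettered arrays deviated together in the shift (0.64) and less in hypoxia (0.18), and the genotype difference was also fitted with shift and hypoxia letters as blocks. Symbols came from the RefSeq table of R64, in which 5571 of 5974 names matched. The rule for named genes was the 12 largest rises and falls among bright ORFs, a fixed set, and the 2 list members of smallest p in each direction. Other genes were named after their values were seen. A planned search of promoters for motifs was not run, as promoter sequence is not used here. Alternatives are described in the closing section.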

Additional observations from a re-analysis of the deposited data

Results flagged for a closer look

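Of the genes named, the normalized readings of VMA8, ADE1 and PAU23 went in opposite directions in the 2 genotypes on every array. VMA8, a subunit of the vacuolar proton pump, read 0.455 and 0.866 in hypoxia and 2.23 and 3.07 after the shift in the null, a rise of 2.35 ± 0.51 (adjusted p = 0.0137), and fell by 2.22 in the wild type (adjusted p = 0.0271). The null minus wild type difference was 4.57, which did not pass the test over all ORFs (adjusted p = 0.125). The rise in the null was lost without hypoxia array A (1.90, adjusted p = 0.0854) and without shift array A (2.52, adjusted p = 0.0527). ADE1, of purine synthesis, rose by 2.58 ± 0.47 in the null (adjusted p = 0.00526) and differed by -0.19 in the wild type (adjusted p = 0.882). Its difference between genotypes was 2.77 (adjusted p = 0.411). For PAU23 the opposite directions hold on the normalized values, since its deposited readings went down in both genotypes, from 1.19 and 1.85 to 0.215 and 0.761 in the null and from 0.974 and 1.14 to 0.908 and 0.947 in the wild type. Normalized, it differed by -1.11 in the null and 0.07 in the wild type, neither past the threshold, and its difference between genotypes was -1.18 (adjusted p = 0.739).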

How the results depend on the processing

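The main test gave 263 rises and 58 falls. Other scalings gave 145 and 102 (deposited values), 152 and 102 (centred on medians) and 161 and 98 (quantile normalization over the 4 arrays). With zeros kept and floored, 823 ORFs passed, 494 of them falls. Filters above the 10th and 25th percentile of positive values left 200 calls (159 rises) and 109 calls (89 rises, 20 falls), with fewer ORFs tested. Only the 4 arrays in the fit gave 153 calls, 125 rises and 28 falls, with fewer degrees of freedom. Leaving out each array in turn gave 232 to 412 calls, 184 to 337 rises and 35 to 103 falls; over ORFs positive on all 4 arrays, an alternative added after seeing the data, leaving out shift array A or B gave 217 or 363 calls, 162 or 293 rises and 55 or 70 falls. Moderation over the tested ORFs only, also added then, gave 450 calls. With the replicate block for the letters the contrast in the null gave 339 calls, 308 of them among the 321. The difference between genotypes gave 1 call with the replicate block within each condition, AIR2, 3 with the added moderation and 0 under the other alternatives run. Of 83 named genes called, 49 kept their call under every alternative that tested them and 34 lost it under at least 1. Among the 34, HSP104, ATP1, AAD3, UTH1, ILV6, MET28 and ADE1 each lost it under 1 alternative. The losses named with a gene above are not always all of its losses. SUP45 turned to -0.29 on the deposited values and -0.26 after centring, and ANB1 to -0.32 over the 4 arrays, -0.09 without hypoxia array A and -0.12 without shift array B (0.14 without shift array A). The causes were not tested.

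With 2 arrays a group and many zeros after the shift, small changes and falls to 0 were not detectable. Signals near 0 fix no fold. Time without oxygen, the way it was removed and the lipid supplement cannot be told apart.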

Other observations

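The calls were not spread evenly over the chromosomes, as read from the systematic ORF names. Chromosomes I to III held 339 (15.2%) of the 2229 tested ORFs, 28 (10.6%) of the 263 rises and 23 (39.7%) of the 58 falls. Chromosomes XV and XVI held 215 (9.65%) of those tested, 36 of the rises and 6 of the falls. Of their 1017 ORFs 33.2% were at 0 on both shift arrays, against 21.8% of the 675 on chromosomes I to III. Among ORFs at 0 on shift array A only, array B alone gave 1 rise and 19 falls on chromosomes I to III, and 18 rises and 2 falls on XV and XVI. The sources used here do not give the place of each spot on the array, and its part in this pattern was not tested. The chromosome groups were chosen after their values were seen.

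Of the 403 ORF names with no match in RefSeq, 165 (40.9%) were at 0 on both shift arrays, against 26.2% of all 5974.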
